A study of Mus musculus with 6 samples.

Results

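Rab GTPases are small membrane-bound switches that decide which vesicle meets which compartment. In its GTP-bound form a Rab recruits tethers, motors and lipid kinases to a membrane, and exchange factors, GTPase-activating proteins and GDP dissociation inhibitors turn that state on, turn it off and return the protein to the cytosol. In a phagocyte, an engulfed apoptotic cell passes from compartments that carry Rab5 to compartments that carry Rab7 before it meets the lysosome, while Rab4, Rab11 and Rab14 return membrane and receptors to the surface.

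The Rab genes were taken as all genes with a symbol of the form Rab followed by a number, with an optional letter and digit, that were the only gene named for a probe set. They comprised 59 genes of 19938 measured, on 62 probe sets. Where a gene had more than 1 probe set, as Rab2a, Rab5b and Rab11b did, the brightest one, by its mean log2 value on the 6 arrays, stood for it. Amplified RNA of 1000 laser-captured macrophages per mouse was hybridized to 1 Affymetrix Mouse Gene 1.0 array. SS-TAMs, the starry-sky tumor-associated macrophages, came from 3 female BALB/c SCID mice, 6 to 12 weeks old. These mice carried subcutaneous xenografts of the human Burkitt's lymphoma line BL2, taken at 1.44 cm2, and the captured cells were chosen by CD68 staining. GCMs, the tingible-body macrophages of germinal centers, came from 3 female CSF1R EGFP transgenic BALB/c mice of the same age, which carry a fluorescent reporter under the Csf1r promoter and were given 2 doses of sheep red blood cells. Their tissue label and protocol name the spleen, and their source label names lymph nodes. SCID mice lack mature lymphocytes and the reporter mice do not. Genotype, tumor, immunization, site and the marker used to choose the cells all differ together between the groups and cannot be told apart.

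The median of each array was between 6.3 and 6.5 for SS-TAMs and between 6.1 and 6.2 for GCMs. Bright values were further apart, with 99th percentiles between 241 and 284 in SS-TAMs and between 614 and 664 in GCMs. Core macrophage markers were measured in both groups, and 14 of 22 were higher in SS-TAMs with none lower, where Cd68 and Csf1r are also genes behind the choice of cells. Their intensities summed to between 3075 and 4020 in SS-TAMs and between 1364 and 1559 in GCMs. Of 20 T cell markers 11 were lower and none higher, with sums between 296 and 419 in SS-TAMs and between 1384 and 1853 in GCMs. Dendritic cell markers (4 of 10) and B cell markers (2 of 15) had only lower calls, and the B cell sums lay between 144 and 183 in SS-TAMs and between 215 and 558 in GCMs. Of 9 follicular dendritic cell and splenic stroma markers, 3 were lower (Clu, Mfge8 and Ccl19) and 1 was higher (Vcam1). Of 7 plasma cell markers, Jchain was lower and Xbp1 higher. Fibroblast and pericyte markers had 5 higher calls among 15, with sums between 853 and 1614 in SS-TAMs and between 443 and 568 in GCMs. Over all genes, 5.16% were called higher and 4.74% lower. An intensity has no true zero, so none of these markers can be read as absent. In captured tissue, fewer cells of a type and less RNA per cell cannot be told apart.

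Few Rab transcripts differed between the macrophages, and those that did went both ways. Of 59 Rab genes, 4 were higher in SS-TAMs (Rab24, Rab31, Rab33a and Rab40c) and 4 were lower (Rab21, Rab8a, Rab2a and Rab27a) at an adjusted p under 0.05 from limma, a linear model with a shared variance estimate. That is 13.6% of the Rab genes, beside 9.9% of all genes tested. Higher calls were made for 5.16% of all genes and lower calls for 4.74%. The median log2 fold change, SS-TAM minus GCM, was 0.065 over the Rab genes and 0.041 over all genes. The SS-TAM and GCM arrays did not overlap for 16 Rab genes, or 27.1%, beside 30.1% of all genes. Both shares lay near the background. Both group means were at or under 6.5, the highest array median, for 20 Rab genes, beside 44.4% of all genes, and above it for 33. Genes described below as at or under the array medians, or above them, are those with group means so placed against this value. With each array centered on its median, 1 Rab gene was higher and 4 were lower, and over all genes 722 were higher and 1195 lower, against 1028 and 946 without centering. Quantile normalization gave 4 higher and 3 lower Rab genes, not all of them the same. It raised the log2 values of the bright genes Rab1a, Rab7, Rab14, Rab10 and Rab2a, as given below, while Rab21, Rab8a and Rab27a stayed lower. Without either rescaling, none of the higher genes reached 2-fold, whereas Rab21, Rab8a and Rab2a were lower by more than 2-fold. Rab2a was not so after quantile normalization.

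**Figure D1:**
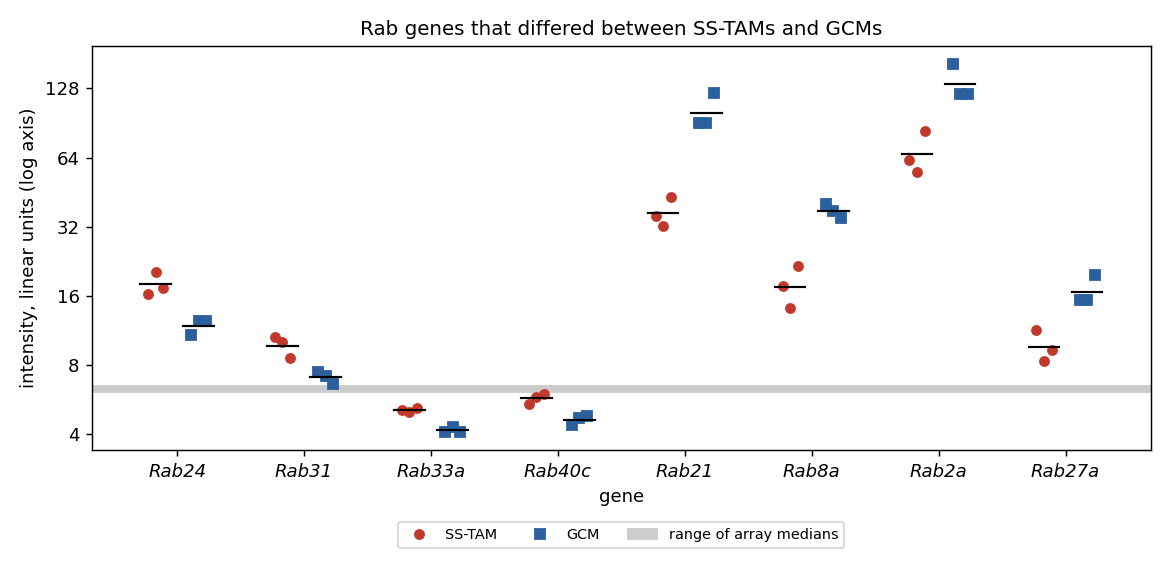
Intensity in linear units (log axis) of the 8 Rab genes that differed, with each point 1 array of 3 SS-TAM (red circles) or 3 GCM (blue squares) arrays, each black bar the geometric mean of a group and the grey band the range of array medians. The groups do not overlap for any of the 8 genes, and Rab33a and Rab40c lie under the band in both groups.

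Rab21, Rab24 and Rab5a share a feature of their start sites that the choice of genes did not use. A window of 250 bases before to 50 bases after the transcription start was at hand in RefSeq (GRCm38.p6) for 48 of the 59 genes. The palindrome GTCACGTGAC was found in the windows of these 3 genes, or 6.25% of the Rab genes with a window, beside 0.525% of the 15614 measured genes with one. It holds the E-box CACGTG, and this sequence type is bound by the MiT/TFE factors that act on lysosomal genes. CACGTG itself was in the windows of 6 Rab genes (12.5%, beside 9.5% of all): these 3 with Rab20, Rab23 and Rab27a. The GC box GGGCGG was in 36 (75.0%, beside 52.9%) and the CCAAT box in 26 (54.2%, beside 41.7%) of Rab genes. TGAC joined to its reverse complement, the cAMP response element, was in 2 (4.17%, beside 2.72%), and TATAAA was in 4 (8.33%, beside 13.6%). Both strands were searched for each motif. The 3 windows are printed because the genes that hold the palindrome differed in opposite ways or not at all. Each runs from 120 bases before the start to base 10 of the transcript, 5′ to 3′ on the gene's strand, with the palindrome in capitals.
Rab21 (chr10:115315582-115315711, minus strand): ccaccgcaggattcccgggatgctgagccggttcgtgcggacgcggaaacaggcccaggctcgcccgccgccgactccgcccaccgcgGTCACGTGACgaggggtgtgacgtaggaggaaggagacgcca
Rab24 (chr13:55321971-55322100, minus strand): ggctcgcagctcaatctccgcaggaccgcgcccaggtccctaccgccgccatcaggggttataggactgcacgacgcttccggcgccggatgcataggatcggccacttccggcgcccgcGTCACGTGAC
Rab5a (chr17:53479114-53479243, plus strand): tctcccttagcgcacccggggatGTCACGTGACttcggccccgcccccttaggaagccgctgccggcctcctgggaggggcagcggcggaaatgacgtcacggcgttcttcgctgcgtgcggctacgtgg
The palindrome begins 32 bases before the start of Rab21 and 97 bases before that of Rab5a, and it begins at base 1 of the Rab24 transcript. Rab21 was lower in SS-TAMs, Rab24 was higher and Rab5a did not pass the test, so the shared letters went with no shared direction. A match is a description of the letters and not of binding.

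Among the Rabs of early endosomes and phagosomes, Rab21 stood apart from its neighbors. Rab21, which acts on early endosomes and in the traffic of integrins, had intensities of 35.8, 32.4 and 43.0 on the SS-TAM arrays, against 90.6, 90.8 and 122.7 on the GCM arrays. Every SS-TAM array lay below every GCM array, and the level was 2.73-fold lower in SS-TAMs (log2 fold change -1.45, 95% interval -1.84 to -1.05, adjusted p = 0.00615 from limma). It was the only Rab gene whose call held without each of the 6 arrays in turn, with log2 fold changes between -1.56 and -1.30 (adjusted p up to 0.030 from limma).

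Rab31, a close relative of Rab22a that works between the trans-Golgi network and endosomes, was at 10.6, 10.1 and 8.6 on SS-TAM arrays, against 7.5, 7.2 and 6.6 on GCM arrays. The groups did not overlap, and the increase was 1.37-fold (log2 fold change 0.46, 95% interval 0.21 to 0.70, adjusted p = 0.043 from limma). This call was kept without SS-TAM replicate 3 and lost without each of the other 5 arrays (adjusted p up to 0.15 from limma) and with median centering, quantile normalization or array weights. Rab22a, which sorts cargo on early endosomes, was at 17.1, 10.1 and 12.5 on SS-TAM arrays, against 10.1, 9.2 and 8.4 on GCM arrays (adjusted p = 0.19 from limma). The lowest of its SS-TAM arrays equalled the highest of its GCM arrays.

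The 3 Rab5 genes, whose products set up the early endosome and the newly closed phagosome, did not pass the test. Rab5b came closest, at 30.7, 24.7 and 23.3 on SS-TAM arrays, against 16.6, 19.0 and 18.9 on GCM arrays, a log2 difference of 0.52 (95% interval 0.22 to 0.82, adjusted p = 0.052 from limma). Its arrays did not overlap. It passed with the mean of its probe sets, with dim probe sets left out and after quantile normalization (adjusted p = 0.040, 0.037 and 0.034 from limma). With 1 array left out it passed in no case (adjusted p between 0.057 and 0.16 from limma). It did not pass with median centering, a variance trend or array weights either. Its second probe set ran at 13.6, 13.6 and 13.4 on SS-TAM arrays, against 11.4, 11.4 and 12.3 on GCM arrays, a smaller log2 difference of 0.21 in the same direction. Probe set numbers of the Rab genes mostly run by chromosome. RefSeq places Rab5b on chromosome 10, and the number of the second set falls next to Rab21 there. That of the brighter set falls between Rab genes of chromosomes 2 and 3. Where the probes of either set map was not tested, so the near-call may not stand for the gene itself. Rab5c was at 25.7, 37.2 and 32.3 on SS-TAM arrays, against 25.8, 26.4 and 26.8 on GCM arrays (adjusted p = 0.30 from limma), with SS-TAM replicate 1 below all GCM arrays. Without that array Rab5c passed narrowly, at a log2 fold change of 0.40. Rab5a was at 14.0, 10.7 and 9.3 on SS-TAM arrays, against 11.2, 11.5 and 11.1 on GCM arrays. The 95% interval of its log2 fold change ran from -0.38 to 0.36. Rab20, which takes part in phagosome maturation in macrophages, had a narrower interval, from -0.15 to 0.15.

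**Figure D2:**
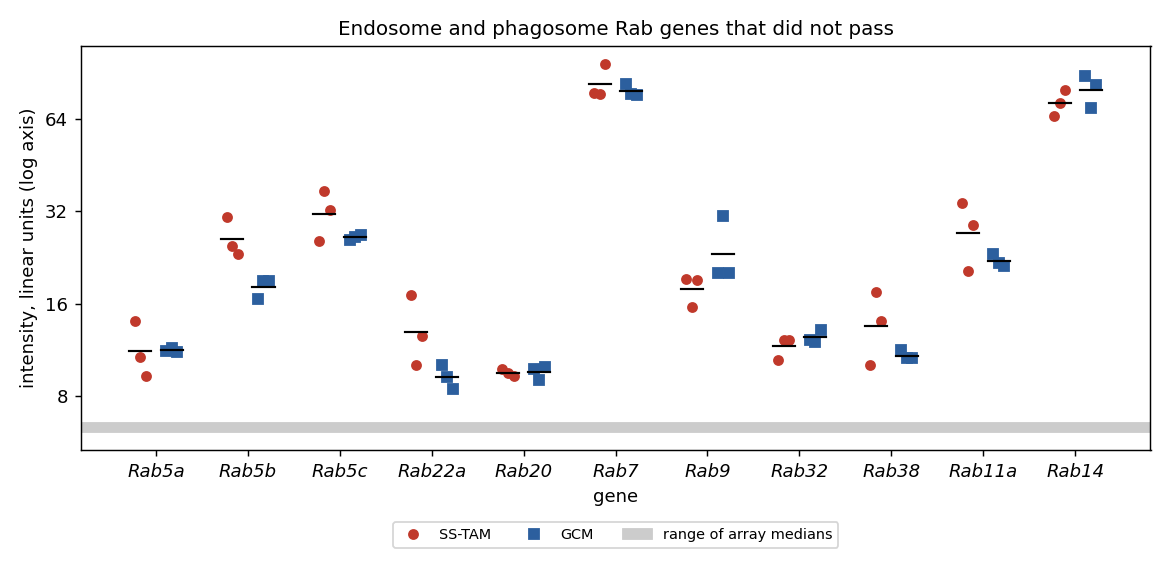
Intensity in linear units (log axis) of 11 endosome and phagosome Rab genes that did not pass the test, with each point 1 array of 3 SS-TAM (red circles) or 3 GCM (blue squares) arrays, each black bar the geometric mean of a group and the grey band the range of array medians. Rab5b and Rab9 are the genes shown whose arrays do not overlap, and Rab7 lies between 76.9 and 96.7 on all 6 arrays.

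Rabs of late endosomes, lysosomes and phagosome maturation were nearly all without a call. Of 15 such genes, Rab24 was higher and none was lower, or 6.67%, beside 9.9% of all genes. Their median log2 fold change was 0.078. Rab24, an atypical Rab of late endosomes and autophagic vacuoles, was at 16.3, 20.4 and 17.4 on SS-TAM arrays, against 10.8, 12.4 and 12.4 on GCM arrays. All SS-TAM arrays lay above all GCM arrays, and the increase was 1.52-fold (log2 fold change 0.60, 95% interval 0.34 to 0.86, adjusted p = 0.025 from limma). The call was lost when SS-TAM replicate 3 or any 1 GCM array was left out (adjusted p then up to 0.086 from limma) and after quantile normalization.

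Rab7, the central Rab of late endosomes and of phagosome fusion with lysosomes, was at 77.8, 77.6 and 96.7 on SS-TAM arrays, against 83.5, 77.3 and 76.9 on GCM arrays. The groups overlapped, and the 95% interval of the log2 fold change, from -0.18 to 0.33, left out a 2-fold difference in either direction. Quantile normalization moved this value to 0.56 and past the threshold (adjusted p = 0.017 from limma), so for Rab7 the scaling between arrays decided the call. Rab9, which returns mannose 6-phosphate receptors from late endosomes to the Golgi, was at 19.3, 15.6 and 19.1 on SS-TAM arrays, against 20.2, 30.9 and 20.2 on GCM arrays (adjusted p = 0.28 from limma). All its SS-TAM arrays were below its GCM arrays, and GCM replicate 2 was far above the other two.

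Rab32 and Rab38, a related pair that delivers cargo to lysosome-related organelles, had log2 fold changes of -0.098 and 0.32, neither past the threshold. Rab38 was the more variable of the pair, at 10.1, 17.4 and 14.0 on SS-TAM arrays, against 11.3, 10.6 and 10.6 on GCM arrays. Rab29, Rab36 and Rab9b were above the array medians in both groups, with log2 fold changes between -0.0023 and 0.065. Rab39, which has been placed on phagosomes, was at 6.8, 7.4 and 7.2 on SS-TAM arrays and at 6.3 on each GCM array. Its arrays did not overlap, yet its log2 fold change was 0.18 (adjusted p = 0.11 from limma). Rab7b, Rab12, Rab34, Rab39b and Rab42 were at or under the array medians in both groups, and Rab44 was so in GCMs. With 1 array left out, 4 of these genes passed: Rab39 without SS-TAM replicate 1 (log2 value 0.21), Rab7b without SS-TAM replicate 2 (0.54), and Rab34 and Rab12 without SS-TAM replicate 3 (0.36 and -0.43). No detection calls were used, so these low values neither show nor exclude expression.

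None of 9 recycling Rabs passed the test in either direction, where 9.9% of all genes did. Their log2 fold changes ran from -0.51 for Rab11b to 0.31 for Rab11a, with a median of 0.038 over 9 genes. Rab14, which moves between the Golgi, early endosomes and phagosomes, was at 65.8, 72.4 and 79.8 on SS-TAM arrays, against 88.8, 69.5 and 82.6 on GCM arrays, with overlapping groups. Quantile normalization turned its log2 fold change from -0.14 to 0.30, still not past the threshold (adjusted p = 0.18 from limma). Rab11a, the main Rab of the recycling endosome, was at 34.2, 20.4 and 29.0 on SS-TAM arrays, against 23.2, 21.7 and 21.3 on GCM arrays. SS-TAM replicate 2 lay below all GCM arrays, and without it Rab11a passed at a log2 difference of 0.51 (adjusted p = 0.046 from limma). Rab11b, its close homolog, was at 9.9, 16.9 and 21.3 on SS-TAM arrays, against 26.9, 20.0 and 19.1 on GCM arrays. Its second probe set was lower on every SS-TAM array, at 8.3, 6.3 and 6.5, against 11.8, 9.0 and 11.4 on GCM arrays, a log2 difference of -0.61. The mean of both sets did not pass (adjusted p = 0.063 from limma). RefSeq places Rab11b on chromosome 17, and the number of the second set falls next to Rab40c there. That of the brighter set falls next to Rab1b of chromosome 19, and where its probes map was not tested. The difference between the responses of these homologs was not tested. Of the rest, Rab4b was above the array medians in both groups, and Rab4a, Rab15, Rab17, Rab25 and Rab35 were at or under them.

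Of 12 secretory Rabs, 2 were lower and none was higher, or 16.7%, beside 13.6% of the Rab genes and 9.9% of all genes. Rab8a, which carries vesicles from the Golgi and recycling endosomes to the plasma membrane and acts on macropinosomes in macrophages, was at 17.7, 14.2 and 21.6 on SS-TAM arrays, against 40.2, 37.6 and 35.1 on GCM arrays. The groups were well apart, with a 2.14-fold lower level in SS-TAMs (log2 fold change -1.10, 95% interval -1.48 to -0.71, adjusted p = 0.013 from limma). The call was lost when any 1 GCM array was left out (adjusted p then up to 0.068 from limma). Its homolog Rab8b was at 148.0, 79.1 and 104.9 on SS-TAM arrays, against 83.1, 162.1 and 133.4 on GCM arrays. These arrays overlapped throughout, and the 95% interval of Rab8b, from -0.97 to 0.61, was wide.

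Rab27a docks secretory lysosomes and exosome-bearing endosomes at the plasma membrane and is needed for the release of cytotoxic granules by T and NK cells. It was at 11.4, 8.3 and 9.3 on SS-TAM arrays, against 15.4, 15.3 and 19.7 on GCM arrays, with no overlap. The level was 1.74-fold lower in SS-TAMs (log2 fold change -0.80, 95% interval -1.18 to -0.42, adjusted p = 0.031 from limma). The call was kept without SS-TAM replicate 1 and lost without each of the other 5 arrays (adjusted p up to 0.095 from limma) and with array weights (adjusted p = 0.066 from limma). As given above, 11 of 20 T cell markers were also lower. Of 10 NK and cytotoxic cell markers, Nkg7 and Eomes were lower and none was higher, with sums between 65.7 and 74.4 in SS-TAMs and between 85.1 and 89.9 in GCMs. Nkg7 averaged 10.0 in SS-TAMs and 23.6 in GCMs. Prf1, Gzmb and Gzma, also in that list, did not pass, at log2 fold changes of 0.051, 0.34 and -0.26. The part of T, NK and cytotoxic cells in the Rab27a result, or in the lower values of Rab21, Rab8a and Rab2a, was not tested. Nor was that of B, plasma, dendritic or stromal cells. Rab10, a Rab of phagosomes and of plasma membrane delivery, was at 51.0, 91.1 and 68.2 on SS-TAM arrays, against 99.2, 101.0 and 90.6 on GCM arrays (log2 difference -0.51, adjusted p = 0.20 from limma), and quantile normalization brought that difference to -0.032. Of the other 8 secretory Rabs none passed, and 7 of the 12 were at or under the array medians in both groups.

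Of 12 Rabs of the endoplasmic reticulum and Golgi, Rab2a was lower and Rab33a higher, or 16.7%, beside 9.9% of all genes. Rab2a, which acts between the endoplasmic reticulum and Golgi and in the fusion of late endosomes with lysosomes, was at 62.7, 55.2 and 83.5 on SS-TAM arrays, against 162.9, 120.4 and 120.4 on GCM arrays. The arrays did not overlap, and the level was 2.01-fold lower in SS-TAMs (log2 fold change -1.01, 95% interval -1.49 to -0.53, adjusted p = 0.030 from limma). Its second probe set, at 41.8, 42.5 and 78.0 on SS-TAM arrays and 170.1, 97.8 and 85.4 on GCM arrays, differed by -1.12 on the log2 scale. RefSeq places Rab2a on chromosome 4, whereas the number of this second set falls next to Rab28 of chromosome 5. The call of Rab2a was lost with the mean of its probe sets, with array weights and after quantile normalization, which brought the log2 value to -0.48 (adjusted p = 0.12 from limma). It was kept without SS-TAM replicate 3 and lost without each of the other 5 arrays (adjusted p up to 0.093 from limma).

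Rab33a, a Golgi Rab, was at 5.1, 5.0 and 5.2 on SS-TAM arrays, against 4.1, 4.3 and 4.1 on GCM arrays (log2 fold change 0.29, adjusted p = 0.024 from limma). Rab40c, which joins a ubiquitin ligase through its SOCS box, was at 5.4, 5.8 and 6.0 on SS-TAM arrays, against 4.4, 4.7 and 4.8 on GCM arrays (log2 fold change 0.31, adjusted p = 0.043 from limma). Both genes separated the groups by about 1 unit of intensity, under the array medians throughout. Rab33a lost its call without any 1 GCM array and Rab40c without each array other than SS-TAM replicate 1 (highest adjusted p 0.10 and 0.15 from limma), and both lost it with arrays centered on the median. Rab40c also lost it after quantile normalization and with array weights. Rab1a, which guides vesicles from the endoplasmic reticulum to the Golgi, was at 210.0, 164.8 and 233.3 on SS-TAM arrays, against 171.5, 183.5 and 165.5 on GCM arrays (adjusted p = 0.37 from limma). After quantile normalization Rab1a differed by 1.12 on the log2 scale and passed. Rab6a, which serves retrograde traffic to and within the Golgi, had a 95% interval of -0.27 to 0.30. Rab23, Rab28 and Rab40b, of the cilium and other roles, did not pass.

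**Figure D3:**
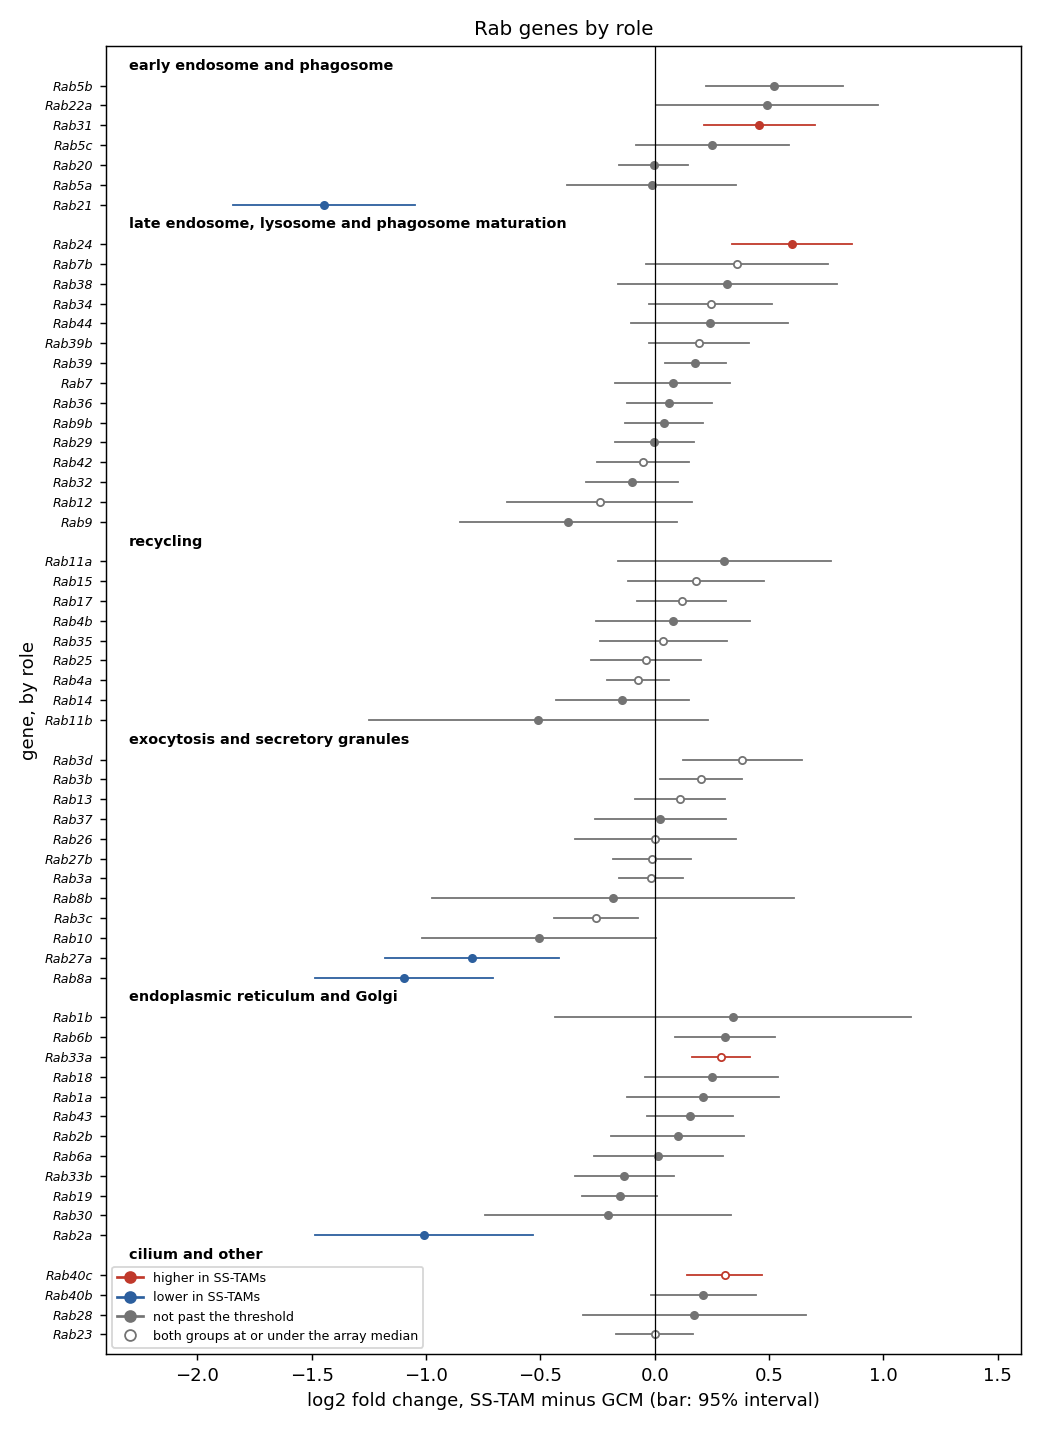
Log2 fold change (SS-TAM over GCM) for all 59 Rab genes ordered by role, with points for estimates and bars for 95% intervals from limma. Red and blue mark genes higher and lower in SS-TAMs at an adjusted p under 0.05. Open points are genes with both group means at or under the highest array median. Rab21 has the lowest value, -1.45, and Rab24 the highest, 0.60.

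Most Rab calls changed when 1 array was left out. Leaving out GCM replicate 1, 2 or 3 left only Rab21 called, while the count over all genes was 847, 670 and 736 without these arrays, against 1974 with all 6. Leaving out SS-TAM replicate 1, 2 or 3 gave 10, 6 and 7 Rab calls. When the mean log2 intensity of the core macrophage markers was subtracted from each array, the median over all genes became -1.27 on the log2 scale, and all 59 Rab genes were then lower in SS-TAMs. Since this scaling moves every gene by the same amount, it leaves their order as it was.

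**Figure D4:**
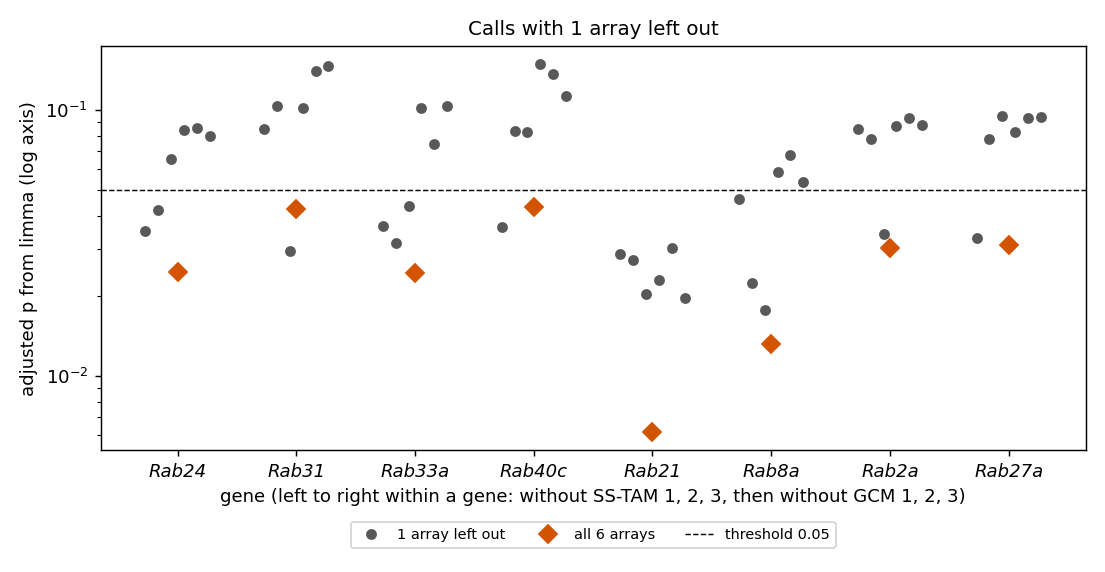
Adjusted p from limma (log axis) of the 8 Rab genes that differed, with all 6 arrays (orange diamonds) and with each array left out in turn (grey points, SS-TAM arrays 1 to 3 and then GCM arrays 1 to 3). Rab21 stays under the 0.05 line in every case, and Rab8a rises above it without each of the GCM arrays.

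Genes that load, switch and read the Rabs were also mostly without a call. Of 198 such genes measured in 10 lists, 10 were higher and 5 lower, or 7.58%, beside 9.9% of all genes. Their median log2 fold change was 0.076. Exchange factors, which load Rabs with GTP, were higher in 3 of 36 cases, or 8.33% beside 5.16% of all genes, and lower in none. Rab3il1, an exchange factor for Rab8 and Rab3 proteins, was at 10.3, 12.0 and 9.8 on SS-TAM arrays, against 6.9, 6.9 and 6.5 on GCM arrays (adjusted p = 0.011 from limma). It was thus higher where Rab8a was lower. Sbf2, an exchange factor for Rab21 and Rab28, was at 18.9, 17.1 and 16.8 on SS-TAM arrays, against 12.2, 10.8 and 12.2 on GCM arrays (log2 fold change 0.59, adjusted p = 0.011 from limma), and held its call without each array. Dennd4c, which acts on Rab10, rose by 0.74 on the log2 scale. Rab3il1 lost its call without GCM replicate 2 or 3 (adjusted p up to 0.057 from limma), and Dennd4c kept it only without SS-TAM replicate 2 (highest adjusted p = 0.13 from limma).

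Among 34 GTPase-activating proteins, which turn Rabs off, Sgsm2 was higher and Tbc1d15 and Rabgap1l were lower. That is 8.82%, beside 9.9% of all genes. Tbc1d15, which acts on Rab7, was at 22.9, 26.5 and 26.2 on SS-TAM arrays, against 33.5, 33.6 and 35.1 on GCM arrays (log2 fold change -0.44, adjusted p = 0.022 from limma), and lost its call without each GCM array (adjusted p up to 0.093 from limma), after quantile normalization and with a variance trend. Sgsm2 likewise lost its call without each GCM array. With 1 array left out, Rabgap1l kept its call only without SS-TAM replicate 2, and it also lost the call with array weights. Of 9 genes of Rab prenylation and membrane delivery, Gdi2 was lower and none was higher, or 11.1%, beside 9.9% of all genes. Gdi2, a GDP dissociation inhibitor that draws Rabs off membranes, was at 85.1, 60.2 and 92.3 on SS-TAM arrays, against 144.7, 156.8 and 123.1 on GCM arrays, with no overlap and a log2 difference of -0.85 (adjusted p = 0.041 from limma). Its call was lost after quantile normalization, with a variance trend, with array weights and without each array other than SS-TAM replicate 2 (highest adjusted p = 0.15 from limma).

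The largest increase in these lists was in a motor gene. Myo5a encodes myosin Va, which moves vesicles that carry Rab27a or Rab11. It was at 88.7, 63.8 and 87.7 on SS-TAM arrays, against 25.6, 13.8 and 16.9 on GCM arrays, a 4.36-fold increase (log2 value 2.13 ± 0.26, SE, with adjusted p = 0.0077 from limma). The groups were far apart and the call held without each array, whereas Rab27a itself was lower. Myo5a was the only gene called among 16 Rab27 and Rab3 secretion effectors (6.25%) and among 21 recycling endosome effectors (4.76%). Over all genes 9.9% were called.

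Of 21 genes listed as Rab7 and late endosome effectors, Pikfyve and Plekhm2 were higher and Psmd10 was lower. That is 14.3%, beside 9.9% of all genes. Pikfyve, the lipid kinase of late endosomes, was at 21.1, 18.6 and 17.2 on SS-TAM arrays, against 10.1, 11 and 12.9 on GCM arrays (log2 fold change 0.75, adjusted p = 0.018 from limma). Plekhm2, which couples lysosomes to kinesin, rose by 0.59 on the log2 scale. Both lost their calls without GCM replicate 1 or 2, and Pikfyve also without SS-TAM replicate 2 (highest adjusted p = 0.087 from limma) and with array weights. Psmd10 (gankyrin), a proteasome assembly chaperone, was at 22.2, 27.5 and 35.2 on SS-TAM arrays, against 75.3, 109.5 and 87.6 on GCM arrays, and held its call without each array. Psmd10 had the lowest value of these lists, at -1.69 on the log2 scale. Nothing in these data ties it to Rab7, so its value is not a reading of Rab7 effectors.

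Among 20 Rab5 and early endosome effectors, Vps45 was higher and Hook1 lower, both with group means at or under the highest array median. That is 10.0% of the list, beside 9.9% of all genes. Hook1 was at 6.3, 6.7 and 6.3 on GCM arrays, above the medians of those arrays. Of 17 Golgi Rab effectors, Gorasp1 and Bicd2 were higher, or 11.8%. Each of these calls was lost without any 1 GCM array, and those of Vps45, Gorasp1 and Bicd2 also with median centering or array weights (adjusted p up to 0.17 from limma for Bicd2). Without 1 SS-TAM array, Vps45 kept its call only without replicate 2, Gorasp1 only without replicate 1, Bicd2 only without replicate 3, and Hook1 without replicate 1 or 2. None of 18 retromer and WASH genes, which retrieve receptors from endosomes, was called. The 10 genes of the HOPS and CORVET complexes, the tethers that follow Rab7 and Rab5, had log2 fold changes between 0.063 and 0.51 with a median of 0.26, beside 0.041 over all genes, and none passed the test. For Vps39, a HOPS subunit that binds Rab7, the 3 SS-TAM arrays averaged 21.1 ± 7.09 and the 3 GCM arrays 14.4 ± 1.12 (mean ± SD), so the spread among SS-TAMs was as large as the difference.

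**Figure D5:**
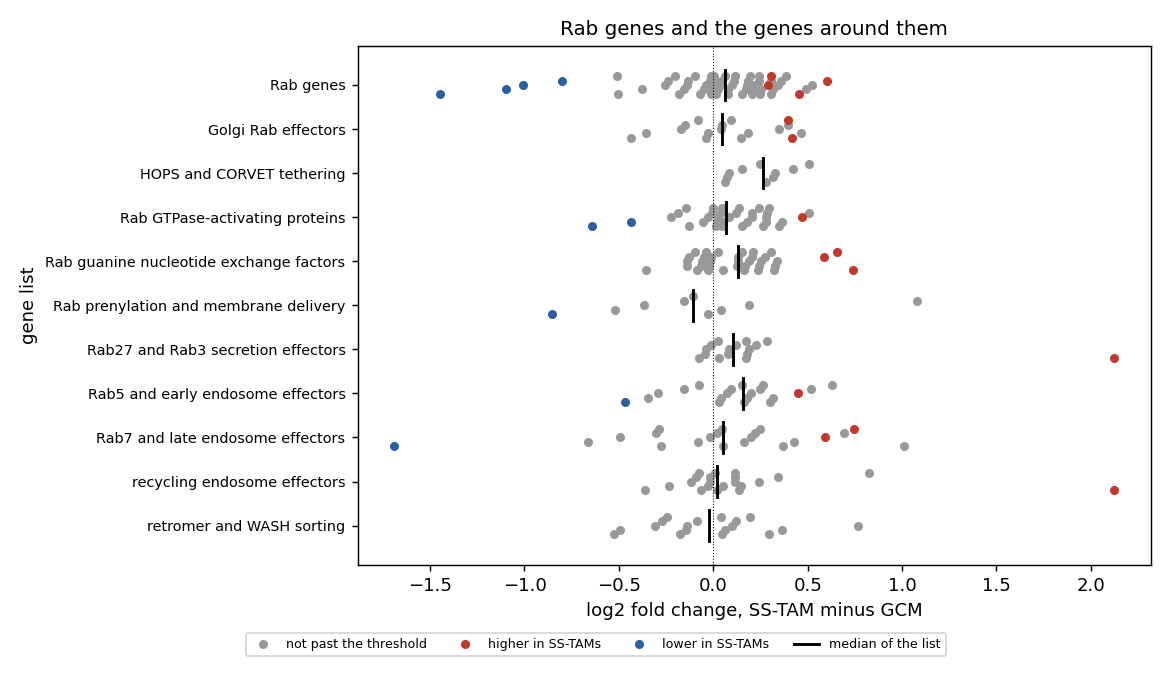
Log2 fold change (SS-TAM over GCM) for the Rab genes and for 10 lists of genes around them, with each point 1 gene, red and blue for genes higher and lower in SS-TAMs at an adjusted p under 0.05, grey for the rest, and a black tick for the median of each list. Myo5a, in 2 lists, lies at 2.13, and Psmd10 at -1.69.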

How the data were processed

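For each of 3 SS-TAM and 3 GCM arrays, 1 animal each, the authors deposited 28944 intensity values, linear and rounded to 1 decimal, from 2.4 to 2544. RMA and limma are the tools in their processing notes, without versions. Probe sets with 1 gene in the platform annotation (21789) were kept, and 1621 with several genes and 5534 unnamed here were not used. Every one of the 59 Rab genes matched RefSeq. Intensities were put on the log2 scale and fitted by limma 3.58.1 (R 4.3.3) with group as the only term. The two-sided p was adjusted by Benjamini-Hochberg across 19938 genes, with 0.05 as the limit. With 3 arrays a group, exact permutation reaches no p below 0.1, and this number limits the precision. Folds are ratios of geometric means.

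The Rab genes, their roles and the gene lists were chosen with earlier results of these data known. Named are the called Rab genes, the endosome, phagosome and recycling Rabs, the 3 brightest of each other role and up to 4 called genes per list and direction. Vps39 and Arl1 were added after their values were seen. In simulated arrays of 19938 genes, limma found 82 of 100 genes with a log2 change of 1, 92 of 100 with a change of 2, and 5 unchanged genes. No smaller change was simulated, so these counts do not cover changes the size of those in the higher Rab genes. Results were recomputed with other scalings, without dim probe sets, with the mean of probe sets, a variance trend, array weights or a replicate block, without each array, and at 2-fold.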

Additional observations from a re-analysis of the deposited data

How the results depend on the processing

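Of 59 Rab genes, 8 were called. The count was 5 with arrays centered on the median, 4 with array weights, 4 with the replicate number as a block, 3 when at least 2-fold was also asked and 59 when scaled to core macrophage markers, and it ran between 1 and 10 with 1 array left out. Higher Rab genes, 4 in all, numbered 1, 2, 2, 0 and 0 in that order of settings, and 0 to 7 with 1 array left out. Lower Rab genes, also 4, numbered 2 with array weights, 2 with the block and 59 when scaled to core macrophage markers, and 1 to 4 with 1 array left out. Over all genes 1974 were called (1028 higher and 946 lower), 749 at 2-fold or more (279 and 470), 611 higher with the block, and 19673 when scaled to core macrophage markers (128 higher and 19545 lower). With 1 array left out these ran from 670 to 1955, with 271 to 1159 higher and 399 to 796 lower. Of the 198 genes of the lists 15 were called, 196 when scaled to core macrophage markers and 3 to 18 with 1 array left out. Centering on the median moved the split of all calls to 722 higher and 1195 lower. Quantile normalization gave 7 Rab calls, 4 higher and 3 lower, but not for the same genes. Rab24, Rab31, Rab40c and Rab2a lost their calls there, and Rab5b, Rab7 and Rab1a were then called higher.

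The replicate numbers of the labels are shared between groups but pair nothing that the labels state. Deviations of same-numbered arrays from their group means correlated at 0.09, 0.087 and 0.019, each array best with its own number. These values are small and depend on one another, since deviations cancel within a group, so they do not establish a pairing. With the block 1319 genes were called, and among the Rab genes Rab24 and Rab31 were higher and Rab21 and Rab8a lower, while Rab2a, Rab27a, Rab33a and Rab40c were not called. In the lists 14 genes were called with the block, and Bicd2, Gdi2, Pikfyve and Tbc1d15 lost their calls.

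Scaling to core macrophage markers moved every gene down by about the same amount, and the median of all genes to -1.27. Of 35 Rab genes with a positive log2 value all turned negative there, and among those named in the text the values were -0.82 for Rab22a, -0.79 for Rab5b, -1.06 for Rab5c, -0.85 for Rab31, -0.71 for Rab24, -1.23 for Rab7, -0.95 for Rab7b, -1.27 for Rab9b, -1.06 for Rab34, -1.24 for Rab36, -0.99 for Rab38, -1.13 for Rab39, -1.12 for Rab39b, -1.07 for Rab44, -1.004 for Rab11a, -1.13 for Rab15, -1.19 for Rab17, -1.27 for Rab35, -1.23 for Rab4b, -1.10 for Rab1a, -1.29 for Rab6a, -1.02 for Rab33a, -1.14 for Rab28, -1.10 for Rab40b and -1.003 for Rab40c. In the lists they were -0.89 for Bicd2, -0.57 for Dennd4c, -0.91 for Gorasp1, -0.56 for Pikfyve, -0.72 for Plekhm2, -0.65 for Rab3il1, -0.72 for Sbf2, -0.84 for Sgsm2 and -0.86 for Vps45. No other setting turned a called value. Values near the array medians, which no detection call separates from background, are the least certain.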

Other observations

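The Arf and Arl families, small GTPases of vesicle coats and lysosome transport, were set beside the Rab genes. Of 14 measured, Arf6, which acts in membrane traffic at the cell surface and in phagocytosis, was lower in SS-TAMs at -0.57 on the log2 scale (adjusted p = 0.018 from limma) and none was higher. That is 7.14% of these genes, beside 13.6% of the Rab genes and 9.9% of all genes. Arl1, a Golgi member, had the highest log2 fold change, 0.83, and did not pass (adjusted p = 0.14 from limma).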
